A study of Homo sapiens with 65 samples.

Results

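The genes described here are 9 members of the class 3 semaphorin pathway: the secreted ligands SEMA3A, SEMA3C, SEMA3E and SEMA3F, their co-receptors NRP1 and NRP2, and their signalling receptors PLXNA2, PLXNA4 and PLXND1. They are 9 of the 58735 gene identifiers in a table of read counts from human cardioids, which are self-organised heart-like spheroids grown from stem cells. The genes were selected on values measured in these same libraries: SEMA3C at day 2.5 and SEMA3E at day 7.5 had been called different in an earlier analysis both after loss of the hyaluronan synthase HAS2 and after hyaluronidase, and the other members belong to the same pathway. Knockout against wild type and hyaluronidase against untreated at days 2.5 and 7.5 are therefore described below without a test. Only the other comparisons are tested.

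The study measured RNA in 65 libraries of left-ventricular cardioids grown from WTC-11, a human induced pluripotent stem cell line, with 8 cardioids pooled in each library. In the genotype arm (41 libraries), cardioids labelled WT or HAS2-KO were sampled at day 1.5 (5 WT and 6 KO libraries), day 2.5 (6 and 6), day 4.5 (6 and 6) and day 7.5 (3 and 3). Clones cl4, cl14, cl46 and cl51 gave the KO libraries, and the WT ones are named TNT2, cl43_WT_UT, WT_TU or WT. Clone cl4 gave repeat libraries R1, R2 and R3 up to day 4.5, and R2 and R3 at day 7.5. Clones cl46 and cl51 gave none at day 7.5. The tests took libraries of the same clone as separate replicates. In the enzyme arm (24 libraries, 3 per group, lines named TNNI1, WT and TNNT2), cardioids of genotype WT were left untreated or kept in hyaluronidase (HAse), which cuts hyaluronan. The enzyme was present from day 1.5 in libraries of days 2.5, 4.5 and 7.5, and from day 2.5 in libraries of days 4.5 and 7.5. Its dose is not given in the sources used here. Groups of both arms share the same differentiation scheme, in which cells were dissociated and reseeded at day 1.5 into medium with BMP4, FGF2, insulin, retinoic acid and the WNT inhibitor C59. The labels state biological replicates, but do not say that each library came from a separate culture. P-values therefore measure the spread between these libraries, part of which may be technical.

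Class 3 semaphorins are secreted guidance cues. Most of them bind a neuropilin, which has a short cytoplasmic tail and passes the signal to a plexin, whose cytoplasmic part acts on small GTPases and the cytoskeleton to make a cell or growth cone withdraw. SEMA3E is the exception in that it can bind PLXND1 directly. In the embryo, SEMA3C, PLXNA2 and PLXND1 take part in shaping the cardiac outflow tract and SEMA3A patterns the sympathetic innervation of the heart, while NRP1 and NRP2 also bind VEGF ligands.

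SEMA3A, SEMA3C, SEMA3E and PLXNA4 lie on the long arm of chromosome 7. In GRCh38, SEMA3C spans chr7:80742538-80922359, SEMA3E spans chr7:83363238-83649113, SEMA3A spans chr7:83955777-84492724 and PLXNA4 spans chr7:132123332-132648688, all on the minus strand. SEMA3F spans chr3:50155045-50189075 on the plus strand and PLXND1 spans chr3:129555175-129606818 on the minus strand. NRP1 lies at chr10:33177492-33336262 (minus), NRP2 at chr2:205681990-205798133 (plus) and PLXNA2 at chr1:208022242-208244320 (minus). SEMA3F shares exon sequence with SEMA3F-AS1 on the opposite strand, which held 20 counts over all 65 libraries against 3051 for SEMA3F.

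SEMA3C and SEMA3E are the ligands on which the results turn, so the 250 bases before each of their annotated start sites are shown first (RefSeq, GRCh38.p14, minus strand, 5′ to 3′). RefSeq promoter windows of 300 bases, 250 before and 50 after a start, were matched for 7 of the 9 genes by symbol. Capitals mark matches to a GATA factor motif (GATAA, or TTATC on the other strand), a T-box motif (GGTGTGA or TCACACC) or a retinoic acid receptor half-site (AGGTCA or TGACCT), searched because such factors act in early heart cells and retinoic acid was in the medium.
SEMA3C upstream start, chr7:80922390-80922639: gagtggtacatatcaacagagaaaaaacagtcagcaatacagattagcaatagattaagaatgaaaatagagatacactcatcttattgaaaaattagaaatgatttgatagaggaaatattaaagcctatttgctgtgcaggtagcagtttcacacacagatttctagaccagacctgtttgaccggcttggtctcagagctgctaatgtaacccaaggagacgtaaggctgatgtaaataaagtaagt
SEMA3C downstream start, chr7:80919052-80919301: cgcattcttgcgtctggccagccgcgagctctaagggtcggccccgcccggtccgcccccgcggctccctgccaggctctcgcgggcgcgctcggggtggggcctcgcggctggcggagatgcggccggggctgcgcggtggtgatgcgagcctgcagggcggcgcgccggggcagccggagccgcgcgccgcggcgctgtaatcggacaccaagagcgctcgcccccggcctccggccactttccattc
SEMA3E upstream start, chr7:83649140-83649389: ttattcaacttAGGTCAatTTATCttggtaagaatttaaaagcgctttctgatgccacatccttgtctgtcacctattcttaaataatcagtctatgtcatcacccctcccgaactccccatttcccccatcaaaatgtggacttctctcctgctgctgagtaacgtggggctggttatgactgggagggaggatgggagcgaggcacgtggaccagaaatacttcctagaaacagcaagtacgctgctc
SEMA3E downstream start, chr7:83641432-83641681: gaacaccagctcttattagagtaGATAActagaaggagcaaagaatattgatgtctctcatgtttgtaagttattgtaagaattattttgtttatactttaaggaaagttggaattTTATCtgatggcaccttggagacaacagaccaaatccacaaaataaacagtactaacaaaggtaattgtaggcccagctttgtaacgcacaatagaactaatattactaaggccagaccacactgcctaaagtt

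The sequences of the paired starts differed. The window of 300 bases at the upstream SEMA3C start was 36% G or C with 2 CpG dinucleotides, whereas the downstream one was 75.7% G or C with 46. The median over all 35116 RefSeq windows was 58.7% and 14 CpG. Neither SEMA3C window held any of the 3 motifs. The upstream SEMA3E window was 47.3% G or C with 6 CpG and held 1 GATA match and 1 retinoic acid receptor half-site, 2 bases apart, and the downstream one was 35.7% G or C with 1 CpG and 2 GATA matches. A GATA match was present in 22.7% of all windows, a half-site in 13.8% and a T-box match in 3.45%. A match is a description of the letters, not evidence of binding, and reads from the 3′ end of a transcript do not show which start was used.

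Libraries held between 831062 and 3574843 counts, with a median of 1570954. Levels are given as CPM, the counts of a gene per 1000000 counts of its library. One read per transcript end was sequenced, and levels are compared here between groups for 1 gene, not between genes. As these are RNA levels of whole cardioids, fewer cells of a type and less RNA per cell cannot be told apart. HAS2 itself was present in KO libraries at 351 ± 74.5 CPM (SD, n = 6) against 339 ± 133 (n = 6) in WT at day 4.5. Its adjusted p in edgeR's quasi-likelihood test was 0.937 at day 1.5 and 0.992 at day 4.5. The deleted part of HAS2 is not given in the sources used here, so a 3′ count does not check the KO label. Cardiomyocyte markers (TNNT2, MYH6, MYH7, ACTN2, TNNI1, MYL7 and NKX2-5) rose between days 2.5 and 4.5 in WT and in untreated libraries, 7 of 7 in each. The summed level of 8 endothelial markers was at most 90.4 CPM and that of 7 neuronal and neural crest markers at most 25.5 CPM in any library. These sums cover the listed markers only. The VEGF receptor genes FLT1 and KDR were not among the 8 and are counted with the VEGF genes below.

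SEMA3C, a ligand that attracts or repels cells of the outflow tract, came on between days 1.5 and 4.5 of normal differentiation. In WT libraries it held 0 to 4 counts per library at day 1.5, a mean of 0.788 ± 0.968 CPM (n = 5), then 11 ± 7.49 CPM (n = 6) at day 2.5, 25.1 ± 6.59 (n = 6) at day 4.5 and 27.2 ± 3.56 (n = 3) at day 7.5. Untreated libraries of the enzyme arm gave 20.4 ± 12.5, 36.5 ± 5.0 and 27.4 ± 13.6 CPM (n = 3 each) at days 2.5, 4.5 and 7.5. The fitted log2 differences were 3.72 (SE 0.56) for day 2.5 over day 1.5 and 1.23 (SE 0.37) for day 4.5 over day 2.5 in WT. Both are descriptions, since they use day 2.5 libraries that also chose SEMA3C, and the first depends on the prior count added to near-empty libraries.

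At day 2.5, the choice of SEMA3C rested on the following levels. The 6 WT libraries lay between 1.85 and 23.6 CPM (median 8.5) and 6 KO libraries between 1.2 and 3.82 (median 2.19). The ranges overlapped, and the log2 difference was -2.12. Within each of the 3 runs of consecutive library numbers, called A, B and C here and not named as batches in the labels, KO was lower: 1.2 against 5.15 CPM in run A, 3.82 against 8.47 in run B and 2.41 against 19.4 in run C. The KO levels rested on 1 to 6 counts per library, and that of run A on 1 count in the shallowest library. Without the WT library TNT2 the call was lost, at a log2 difference of -1.73. Untreated libraries held 6.13, 25.9 and 29.2 CPM in the lines TNNI1, WT and TNNT2, while HAse from day 1.5 gave 0 counts in all 3. Against the 3 counts per library that a count of 0 allows, a mean of 2.11 CPM, this was at least 9.67-fold lower. All 3 treated libraries lay below all 3 untreated ones.

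**Figure D1:**
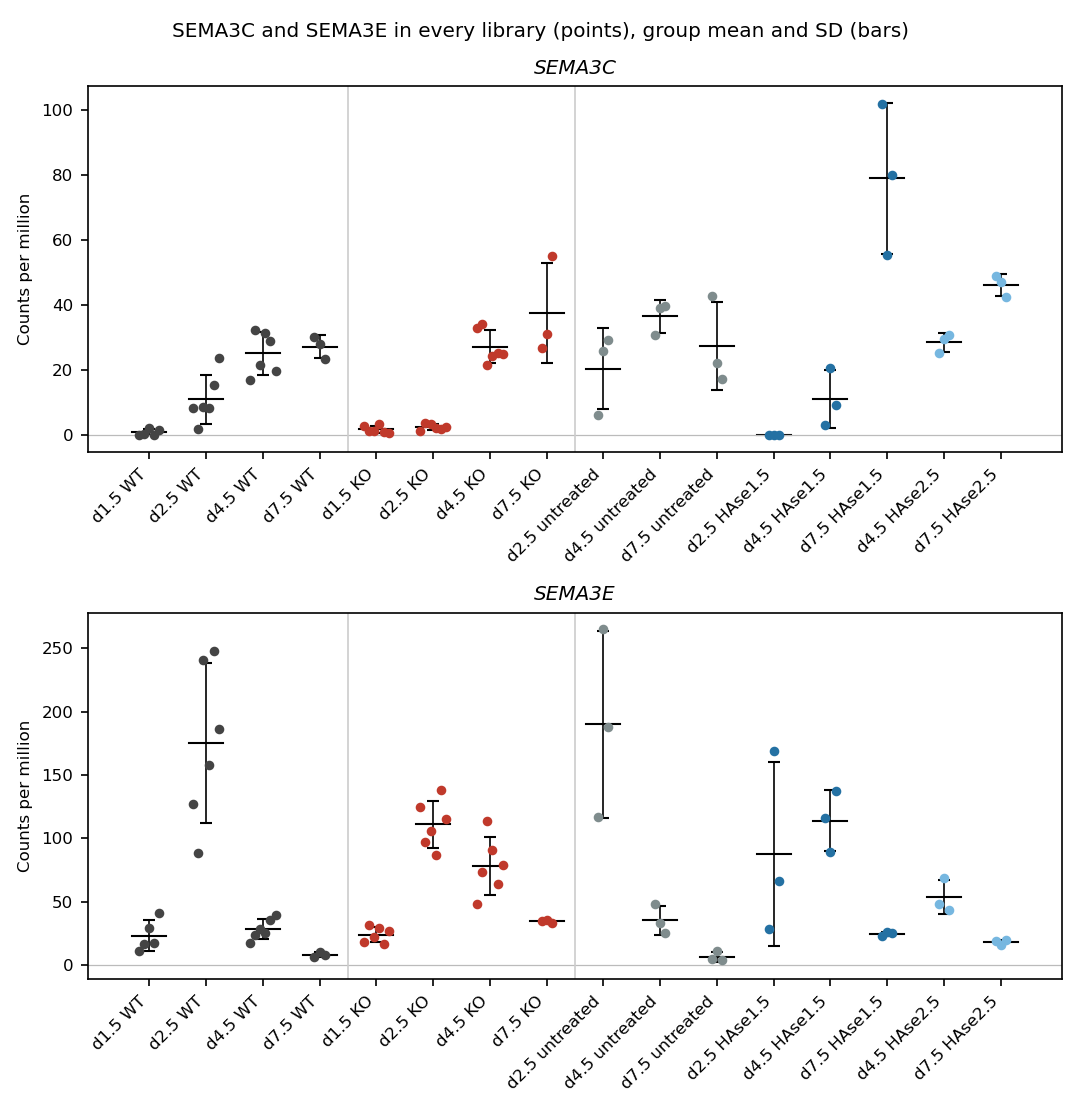
Levels of SEMA3C and SEMA3E in every library (points, CPM) by group and day, with group means as bars, for WT and HAS2-KO libraries and for untreated and HAse libraries. SEMA3C is at 0 counts in all 3 day 2.5 libraries with HAse from day 1.5, and SEMA3E of the KO and of HAse from day 1.5 lies above its controls at days 4.5 and 7.5.

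At day 4.5, a comparison that did not choose the genes, the arms gave different values for SEMA3C. It fell with HAse from day 1.5: the lines TNNI1, WT and TNNT2 held 3.1, 20.7 and 9.31 CPM, against 30.7, 39.1 and 39.6 untreated. Every treated library was below every untreated one. The log2 difference was -1.85 (SE 0.51, adjusted p = 0.0479 in edgeR's quasi-likelihood test with Benjamini-Hochberg adjustment, lower in 3 of 3 lines). The KO at the same day held 27.2 ± 5.17 CPM against 25.1 ± 6.59 in WT (n = 6 each), with overlapping ranges. HAse from day 2.5 gave 25.2, 29.7 and 30.8 CPM. The difference between the starts, -1.47 (SE 0.52) for the earlier minus the later, did not pass (adjusted p = 0.271). The difference between the HAse effect and the KO effect was -1.92 (SE 0.64, adjusted p = 0.273 over all genes). The HAse call was narrow: it was lost when any of the 6 libraries other than the treated one of line WT was left out (adjusted p 0.102 to 0.222).

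By day 7.5 the order had turned for SEMA3C, in a comparison the choice also used and hence without a test. HAse from day 1.5 gave 102, 55.4 and 80.2 CPM against 42.8, 22.3 and 17.1 untreated, and HAse from day 2.5 gave 46.2 ± 3.35 (n = 3). All 3 libraries with the earlier start lay above all 3 untreated ones, after lying below them at days 2.5 and 4.5. KO and WT held 37.6 ± 15.3 and 27.2 ± 3.56 CPM (n = 3 each).

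SEMA3E, the ligand that binds PLXND1, made a short peak. In WT libraries its level was 23.1 ± 12.2 CPM (n = 5) at day 1.5, 175 ± 63.1 (n = 6) at day 2.5, 28.3 ± 8.11 (n = 6) at day 4.5 and 8.3 ± 1.96 (n = 3) at day 7.5. It rose by 2.74 on the log2 scale into day 2.5 (SE 0.27, adjusted p = 1.83e-10) and then fell by 2.6 into day 4.5 (SE 0.25, adjusted p = 7.2e-11). Untreated libraries fell by 2.54 over the second step (SE 0.45, adjusted p = 0.000318), from 190 ± 73.6 to 35.2 ± 11.6 CPM (n = 3 each). The last step, described only because the day 7.5 libraries chose the gene, was -1.73 in WT and -2.3 in untreated libraries.

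SEMA3E at day 4.5 was the one member that passed in the KO and also passed with HAse. The 6 WT libraries lay between 17.2 and 39.3 CPM (median 26.8), and 6 KO libraries between 48.2 and 114 (median 76.3), without overlap. SEMA3E was higher in the KO by 1.41 on the log2 scale (SE 0.25, 95% interval 0.91 to 1.91, adjusted p = 0.000356). KO against WT was 48.2 against 20.5 CPM in run A, 73.3 against 26.8 in run B and 87.0 against 37.4 in run C, so that KO was above WT within each run. With HAse from day 1.5, the lines TNNI1, WT and TNNT2 held 116, 89.0 and 137 CPM against 47.8, 32.9 and 25.0 untreated, again without overlap, a log2 difference of 1.6 (SE 0.45, adjusted p = 0.048). HAse from day 2.5 gave 48.2, 68.7 and 43.6 CPM, which overlapped the untreated range, and the earlier minus the later start was 1.05 (SE 0.43, adjusted p = 0.384). The KO and HAse effects differed by 0.18 (SE 0.48, adjusted p = 0.974), a difference the test did not call.

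The KO value for SEMA3E passed in 18 of 18 alternative settings. The HAse value did not pass when any of the same libraries as for SEMA3C was left out (adjusted p 0.0733 to 0.198). At day 2.5 SEMA3E stood at 111 ± 18.8 CPM in KO against 175 ± 63.1 in WT (n = 6 each), and at 28.1, 169 and 66.2 CPM with HAse against 117, 265 and 188 untreated, each line being lower with the enzyme. The mean at day 2.5 was thus below its control in the groups that lay above it at day 4.5. These day 2.5 values are a description.

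At day 7.5, where SEMA3E was chosen, WT libraries held 6.67, 10.5 and 7.76 CPM and KO libraries 34.5, 35.7 and 33.2, a log2 difference of 2.02. In run B, which alone held both genotypes at that day, 1 KO library stood at 34.5 CPM against a mean of 9.11 in 2 WT libraries. Without the WT library WT_R1 the call was lost, at a difference of 1.89. Untreated libraries held 4.46, 10.8 and 3.71 CPM, HAse from day 1.5 gave 22.8, 25.9 and 25.1, and HAse from day 2.5 gave 18.7, 16.1 and 19.6. The groups did not overlap, and both starts lay above untreated, by 1.78 and 1.40 on the log2 scale. In the fit used here SEMA3C at day 2.5 (both arms) and SEMA3E at day 7.5 in the KO lay inside the threshold of the choice. SEMA3E at day 7.5 lay outside it with either start of HAse. With no filter on low counts it lay inside for both starts, and with DESeq2 for the earlier one. No other alternative called it with HAse.

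Marker levels also differed between some of these groups. At day 4.5 the summed level of the 7 cardiomyocyte markers was 4320 to 13700 CPM in KO libraries and 11700 to 25800 in WT, with MYH7, ACTN2 and MYL7 lower. It was 748 to 4270 CPM with HAse from day 1.5 against 8510 to 18000 untreated, with 5 of 7 lower, and 5660 to 9780 with HAse from day 2.5, with 0 of 7 passing. At day 2.5 the sum was 28.7 to 67.4 CPM in KO against 92.1 to 359 in WT, and 52.2 to 102 with HAse against 200 to 428 untreated. The summed level of 4 mesoderm and primitive streak markers at day 2.5 was 94.7 to 154 CPM in KO against 48.9 to 99.9 in WT, and 193 to 391 with HAse against 68.9 to 124 untreated. At day 4.5 the smooth muscle gene ACTA2 was also lower in both arms, 1 of 3 fibroblast and smooth muscle markers tested. The pluripotency genes NANOG and ZFP42, 2 of 4 tested, were higher in the KO (1.04 and 1.25 CPM against 0 and 0.0521), with overlapping ranges. With HAse from day 1.5, APOA1 was lower (11.6 against 62.2 CPM), 1 of 4 endoderm markers tested. WT1, the 1 epicardial marker of 5 that was tested, was also lower (0 against 14.1 ± 15 CPM), with overlapping ranges. At day 7.5 the cardiomyocyte sum was 7900 to 13000 CPM with HAse from day 1.5, against 25500 to 32200 untreated. HAse from day 2.5 gave 14100 to 24100. The sum was 21900 to 26400 CPM in KO against 27000 to 29300 in WT, with 0 of 7 passing. MYH7 and AFP (1 of 4 endoderm markers tested) were lower with either start of HAse, and ACTN2 and MYL7 with the earlier one. The part of these markers in the semaphorin results was not tested.

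SEMA3A, a repellent ligand that signals through NRP1, and SEMA3F, which signals through NRP2, took opposite courses. SEMA3A in WT libraries rose from 7.44 ± 4.6 CPM (n = 5) at day 1.5 to 20.8 ± 13.5 (n = 6) at day 2.5 (log2 difference 1.34, SE 0.43, adjusted p = 0.0163) and to 76.3 ± 28.6 (n = 6) at day 4.5 (1.94, SE 0.37, adjusted p = 6.48e-05), and stood at 149 ± 19.3 (n = 3) at day 7.5 (adjusted p = 0.234). In untreated libraries SEMA3A held 54 ± 30 CPM at day 2.5 and 101 ± 24.6 at day 4.5 (n = 3 each), with overlapping ranges, and did not pass (0.8, SE 0.49, adjusted p = 0.252). The first of these steps was lost without any of 3 WT libraries: WT_R1 of day 1.5 (adjusted p = 0.0607), WT_TU_R1 of day 1.5 (0.0644) or cl43_WT_UT of day 2.5 (0.0923). SEMA3F held 35.6 ± 9.68 and 36.2 ± 8.09 CPM at days 1.5 and 2.5 in WT, then fell by 2.85 (SE 0.36, adjusted p = 4.14e-08) to 5.04 ± 3.1 at day 4.5. Untreated libraries fell by 2.87 (SE 0.55, adjusted p = 0.000572), from 69.1 ± 19.3 to 10.2 ± 2.66 CPM (n = 3 each).

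At day 4.5 neither of these ligands passed the test in the KO. SEMA3A held 139 ± 40.1 CPM in KO against 76.3 ± 28.6 in WT (n = 6 each), a difference of 0.81 (SE 0.35, adjusted p = 0.195), and KO was above WT in each run of library numbers. SEMA3F held 12.2 ± 7.28 against 5.04 ± 3.1 CPM, a difference of 1.25 (SE 0.38, adjusted p = 0.0537), with KO at 16.5 against 7.51 in run C, 3.05 against 2.17 in run A and 4.28 against 5.45 in run B. KO was thus above WT in runs A and C but not in run B, and run C held 4 of the 6 KO libraries. SEMA3F passed without the KO library cl4_R1 (adjusted p = 0.0144), and DESeq2 called it with all libraries kept. In the enzyme arm SEMA3F stood at 34.8, 13.8 and 18.6 CPM with HAse from day 1.5 against 11.6, 7.1 and 11.8 untreated (adjusted p = 0.446), and SEMA3A at 129 ± 46.5 against 101 ± 24.6 (n = 3 each). HAse from day 2.5 gave 256, 146 and 174 CPM of SEMA3A against 126, 77.3 and 98.1 untreated, higher in 3 of 3 lines and without overlap, but not past the threshold (0.9, SE 0.47, adjusted p = 0.788). At day 7.5, without a test, SEMA3A lay at 365, 281 and 265 CPM with HAse from day 2.5 and at 213, 278 and 197 with HAse from day 1.5, against 179, 86.2 and 89.0 untreated, and at 189 to 227 CPM in KO against 132 to 170 in WT. None of these groups overlapped its control.

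NRP1 and NRP2, the co-receptors, also parted at day 4.5. NRP1 rose in WT from 49.7 ± 22.9 to 160 ± 88.8 CPM (n = 6 each) between days 2.5 and 4.5 (log2 difference 1.71, SE 0.31, adjusted p = 2.73e-05) and in untreated libraries from 59.8 ± 19.3 to 231 ± 65.3 (n = 3 each; 1.83, SE 0.35, adjusted p = 0.000703). NRP2 fell in WT by 1.02 (SE 0.32, adjusted p = 0.0102), from 294 ± 84.2 to 143 ± 92.9 CPM, while untreated libraries went from 459 ± 153 to 288 ± 68.5 without passing. NRP1 thus rose over the days in which NRP2 fell in WT.

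In the KO at day 4.5, NRP2 lay between 143 and 431 CPM (median 326) against 48.6 to 268 (median 118) in WT. The ranges overlapped, and the difference was 0.98 (SE 0.32, adjusted p = 0.0728). NRP2 differed between the runs of library numbers in both genotypes, with means of 55.2, 118 and 257 CPM in WT and 143, 145 and 368 in KO for runs A, B and C, so that KO was above WT in each run. With the run as a term of the fit, the difference was 0.82 and passed (adjusted p = 0.0112). Within run C alone, with 4 KO and 2 WT libraries, it was 0.49 and did not pass (adjusted p = 0.2). With all libraries kept and no term for the run, DESeq2 called NRP2 in the KO. In the enzyme arm NRP2 held 288 ± 164 CPM with HAse from day 1.5 and 288 ± 68.5 untreated, and the difference between the HAse and KO effects was -1.07 (SE 0.53, adjusted p = 0.746). NRP1 at day 4.5 held 199 ± 28.6 CPM in KO against 160 ± 88.8 in WT. With HAse from day 1.5 it held 331, 311 and 435 CPM against 158, 284 and 252 untreated, higher in every line but not past the threshold (adjusted p = 0.516). At day 2.5, without a test, NRP1 with HAse stood at 8.24, 41.5 and 15.0 CPM against 37.8, 73.3 and 68.4, lower in every line.

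PLXNA4, a plexin that pairs with neuropilins for SEMA3A, was nearly absent at first and abundant at the end. WT libraries held 0 to 6 counts at day 1.5 (0.879 ± 1.25 CPM, n = 5), then 6.96 ± 3.57 CPM (n = 6) at day 2.5, 13.9 ± 5.48 (n = 6) at day 4.5 and 112, 140 and 180 CPM at day 7.5. The last step was 3.39 on the log2 scale in WT (SE 0.45, adjusted p = 5.09e-06) and 2.72 in untreated libraries (SE 0.43, adjusted p = 0.000622), which reached 162, 144 and 163 CPM. Day 7.5 lay wholly above day 4.5 in both arms.

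PLXNA4 at day 4.5 had a lower mean in the KO and in both HAse groups than in their controls, without passing the test. KO libraries lay between 1.34 and 15.7 CPM (median 3.35) and WT between 5.93 and 18.9 (median 16), a difference of -1.35 (SE 0.44, adjusted p = 0.0779). KO was lower in run B, at 6.11 against 18.5, and in run C, at 2.72 against 11.9, but stood at 15.7 against 11.3 in run A, whose only KO library was cl4_R1. Without that library the difference was -2.09 and passed (adjusted p = 0.00422). With all libraries kept, DESeq2 called PLXNA4 in the KO. HAse from day 1.5 gave 11.8, 0.864 and 12.8 CPM and HAse from day 2.5 gave 7.19, 3.12 and 7.05, against 21.2, 19.5 and 36.2 untreated. Neither treated group overlapped the untreated one. The differences were -1.59 (SE 0.49, adjusted p = 0.0777) and -2.15 (SE 0.53, adjusted p = 0.0914) in edgeR, while DESeq2 called both (adjusted p = 0.0179 and 0.00541). The level rested on 1 to 22 counts per treated library. By day 7.5 KO libraries held 135, 118 and 133 CPM, within the WT range, and HAse from day 1.5 gave 72.5, 103 and 148, overlapping the untreated libraries. HAse from day 2.5 gave 105, 77.8 and 128 CPM against 162, 144 and 163 untreated, lower in 3 of 3 lines and without overlap. These day 7.5 values carry no test.

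PLXNA2 and PLXND1 are receptors whose loss disturbs the outflow tract. PLXNA2 in WT fell from 274 ± 47.1 CPM (n = 5) by 0.85 (SE 0.2, adjusted p = 0.00103) into day 2.5 and by a further 0.74 (SE 0.19, adjusted p = 0.00247) into day 4.5, to 102 ± 20.5 (n = 6). In untreated libraries it held 145 ± 42.4 CPM at day 2.5 and 120 ± 28.1 at day 4.5 (n = 3 each), with overlapping ranges, and did not pass (-0.4, SE 0.3, adjusted p = 0.362). PLXND1 fell by 1.52 (SE 0.31, adjusted p = 0.000126) between days 2.5 and 4.5 in WT, from 34.9 ± 9.57 to 11.9 ± 3.59 CPM (n = 6 each), and by 1.36 (SE 0.29, adjusted p = 0.00128) in untreated libraries, from 31.9 ± 0.451 to 13.5 ± 3.97 (n = 3 each). SEMA3E and its receptor PLXND1 therefore both fell over this step in both arms.

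**Figure D2:**
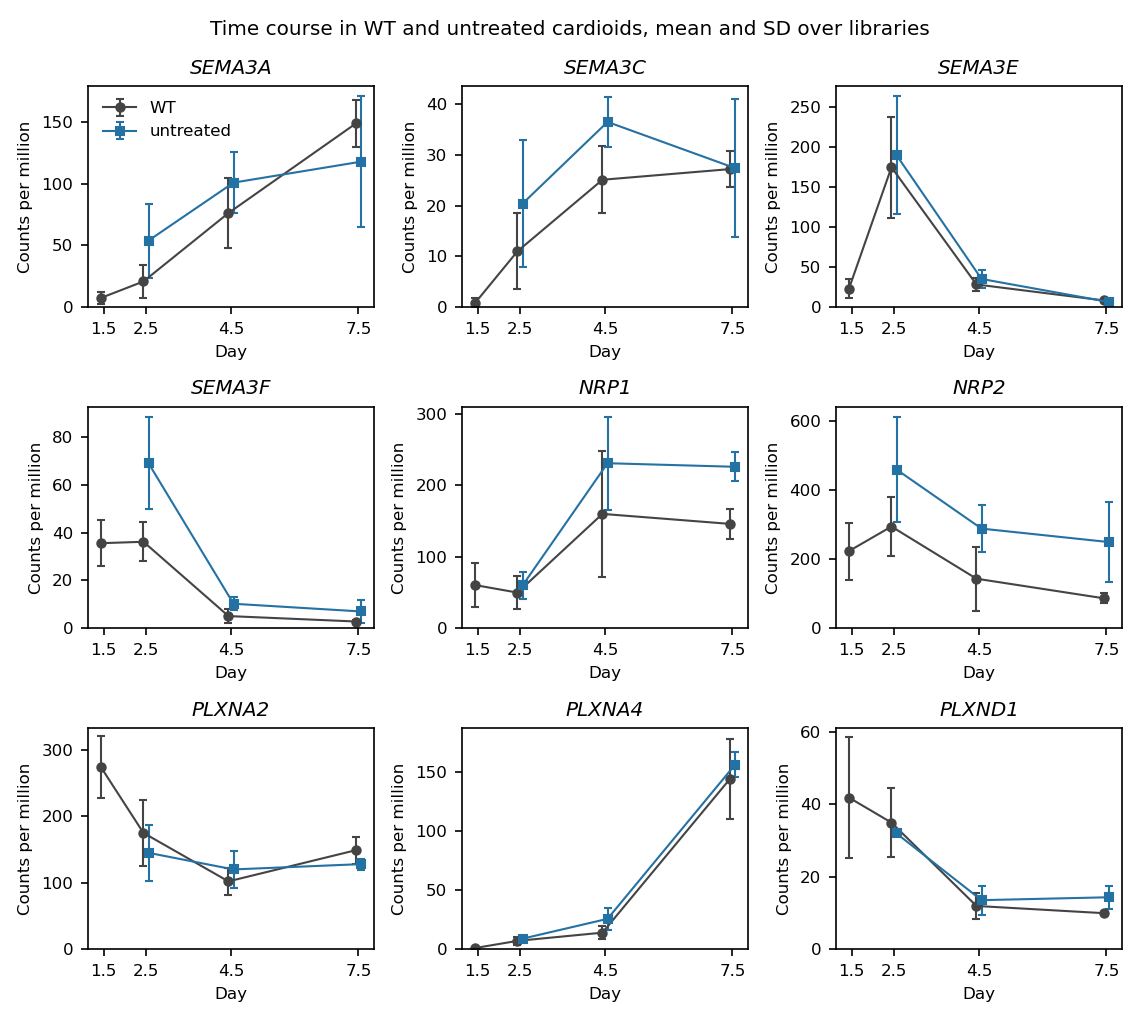
Group means of the 9 genes by day, with the spread over libraries, for the 4 WT groups and the 3 untreated groups. SEMA3A, NRP1 and PLXNA4 are higher at day 4.5 than at day 2.5, while SEMA3E, SEMA3F and PLXND1 are lower, in both arms.

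Neither receptor passed in a test against its control at day 4.5. PLXNA2 held 90.3 ± 30.6 CPM in KO against 102 ± 20.5 in WT, and PLXND1 8.84 ± 4.9 against 11.9 ± 3.59 (n = 6 each). PLXNA2 held 104 ± 32.7 CPM with HAse from day 1.5 against 120 ± 28.1 untreated, and PLXND1 19.9 ± 6.12 against 13.5 ± 3.97 (n = 3 each). On the days without a test, some of their treated groups stood apart and others did not. At day 2.5 PLXND1 with HAse held 63.1, 52.7 and 68.7 CPM against 32.2, 32.2 and 31.4 untreated. PLXNA2 held 286, 190 and 246 CPM against 187, 147 and 102. At day 7.5 PLXNA2 with HAse from day 1.5 held 88.8, 58.2 and 59.9 CPM against 127, 137 and 120. With HAse from day 2.5 it overlapped the untreated libraries (means of 130 and 128 CPM). PLXND1 at day 7.5 overlapped them with either start (15.7 and 16.3 against 14.3 CPM).

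All 9 members passed the filter on low counts in both arms. Counted together over normal differentiation in WT, 5 of 9 were called between days 1.5 and 2.5, where 30.1% of 13797 genes tested were, and 8 of 9 between days 2.5 and 4.5, where 34.5% were. Between days 4.5 and 7.5, 2 of 9 were called against 2.7% of genes. In untreated libraries 5 of 9 were called between days 2.5 and 4.5, against 23% of 12748 genes, and 2 of 9 between days 4.5 and 7.5, against 6.39%. These counts include SEMA3C for the steps of day 2.5 in WT and SEMA3E for the steps into day 7.5, which the choice touched. The median log2 difference of the 9 was 0.21, -0.74 and -0.08 over the 3 WT steps, against 0.01, 0.03 and -0.05 over all genes, and -0.4 and 0.1 over the untreated steps, against 0.02 and 0. Between days 2.5 and 4.5 the WT and untreated values had the same sign in 9 of 9 members and in 73.3% of all genes. Between days 4.5 and 7.5 they did in 6 of 9 and in 63.6%.

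At day 1.5, the day of reseeding, no member differed between KO and WT in edgeR (adjusted p 0.937 to 0.985), none had an unadjusted p under 0.05 and DESeq2 called none. Of all genes 0% were called by either tool, and 4.28% had an unadjusted p under 0.05. At day 4.5, edgeR called 1 of 9 members in the KO (SEMA3E), where 3.74% of genes were called, and 5 of 9 had an unadjusted p under 0.05, where 19.1% of genes did. DESeq2 called 4 of 9 (SEMA3E, SEMA3F, NRP2 and PLXNA4) and 782 of 13797 genes. Without the KO library cl4_R1, 4 of 9 were called (SEMA3E, SEMA3F, NRP2 and PLXNA4), and 3 of 9 without cl4_R2, cl43_WT_UT or TNT2. The shares of all genes called without these libraries are not given here, so these counts have no background beside them. With HAse from day 1.5, 2 of 9 were called (SEMA3E higher, SEMA3C lower), where 3.48% of genes were. Both starts of HAse were set against the same untreated libraries. With HAse from day 2.5, edgeR called 0 of 9, where 0.22% of genes were called. Of the 9, PLXNA4 alone had an unadjusted p under 0.05, where 7.02% of all genes did, and DESeq2 called it. Between the 2 starts of HAse, 0 of 9 were called by edgeR or DESeq2, where edgeR called 0.361% of genes. SEMA3C and SEMA3E had an unadjusted p under 0.05, where 9.65% of all genes did.

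Member medians at day 4.5 were 0.26 in the KO, 0.27 with HAse from day 1.5 and 0.25 with HAse from day 2.5, against -0.03, 0.02 and -0.01 over all genes. The KO and the earlier HAse effect had the same sign in 6 of 9 members and in 61.4% of all genes. In the test of the difference between these effects, edgeR called 0 of 9 members and 0.271% of genes. This test was chosen after the day 4.5 results of both arms had been seen. SEMA3C and NRP2 alone had an unadjusted p under 0.05 in it (0.00377 and 0.0487). In the contrasts that chose the genes, the shares of all genes called were 0.993% (KO, day 2.5), 1.15% (HAse, day 2.5), 0.348% (KO, day 7.5), 3.33% (HAse from day 1.5, day 7.5) and 0.659% (HAse from day 2.5, day 7.5).

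**Figure D3:**
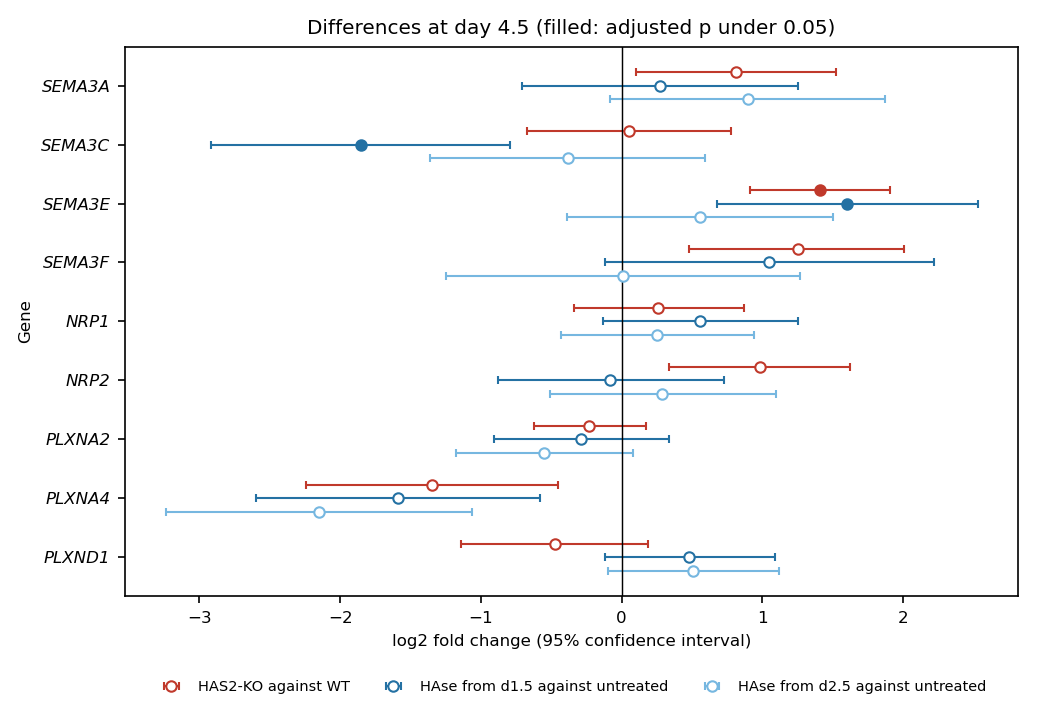
Log2 differences of the 9 genes at day 4.5 with 95% intervals, for KO against WT, HAse from day 1.5 against untreated and HAse from day 2.5 against untreated. SEMA3E lies above 0 for the KO (1.41) and for HAse from day 1.5 (1.6), and SEMA3C lies below 0 for HAse from day 1.5 (-1.85).

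**Figure D4:**
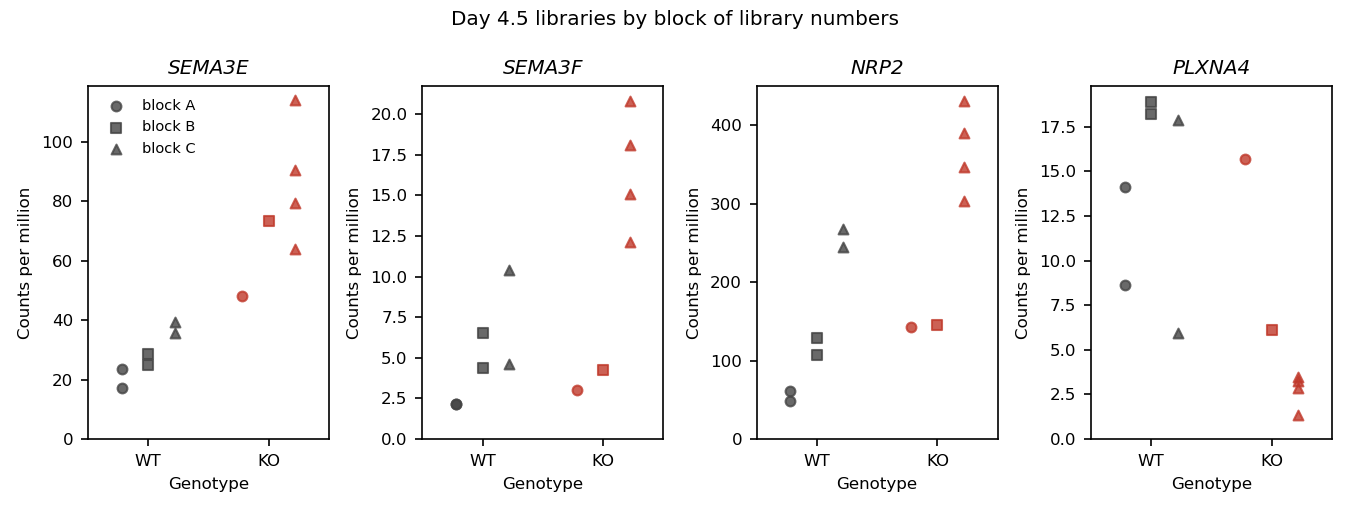
Day 4.5 levels of SEMA3E, NRP2, SEMA3F and PLXNA4 in each KO and WT library (CPM), by run of library numbers (A, B and C). KO libraries lie above WT libraries for SEMA3E and NRP2 in each run, while SEMA3F and PLXNA4 do not keep 1 order over the runs.

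Other pathway genes, in 4 lists, were set beside the members. None of them had a gene called by edgeR in the KO at day 1.5 or day 4.5. At day 4.5, 2 of 8 other class 3 semaphorins and plexins, 1 of 11 membrane-bound semaphorins, 3 of 20 intracellular signalling genes and 2 of 6 VEGF genes had an unadjusted p under 0.05, where 19.1% of all genes did, and DESeq2 called 1 gene, SEMA6A, which was named after its value was seen. At day 1.5 these counts were 2, 1, 4 and 0, where 4.28% of all genes did, and DESeq2 called none. With HAse from day 1.5 at day 4.5, where 3.48% of all genes were called, SEMA5A, a transmembrane semaphorin, fell by 1.54 (38.2 against 103 CPM, adjusted p = 0.0422), 1 of 9 in its list. DPYSL3, a member of the collapsin response mediator family that semaphorins act through, fell by 2.07 (42.6 against 168 CPM, adjusted p = 0.00025), 1 of 20. The VEGF receptor FLT1 (441 against 201 CPM, log2 difference 1.05, adjusted p = 0.00231) and its ligand PGF (25.7 against 7.82 CPM, 1.62, adjusted p = 0.0285) were higher, 2 of 5. Among the other class 3 semaphorins and plexins 0 of 8 passed, with 0 by DESeq2 and 0 at an unadjusted p under 0.05, where 13.8% of all genes were. In the membrane, signalling and VEGF lists, 4 of 9, 3 of 20 and 2 of 5 had an unadjusted p under 0.05. DESeq2 called 2 membrane semaphorins (SEMA5A and SEMA6A), 1 signalling gene (DPYSL3) and 2 VEGF genes (PGF and FLT1), and 621 of 12748 genes in all. None of the lists had a gene called by edgeR with HAse from day 2.5, where 0.22% of all genes were called. In the lists 0, 0, 2 and 1 had an unadjusted p under 0.05, where 7.02% of all genes did, and DESeq2 called 1, DPYSL3.

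Over normal differentiation in WT, edgeR called 3 of 8 other class 3 semaphorins and plexins, 3 of 11 membrane semaphorins, 5 of 20 signalling genes and 4 of 6 VEGF genes between days 1.5 and 2.5, where 30.1% of all genes were called. Between days 2.5 and 4.5 it called 4, 5, 10 and 3 of them (34.5% of all genes), and between days 4.5 and 7.5 it called 0, 2, 1 and 1 (2.7%). In the first step the ligands SEMA3G (3.48) and SEMA3B (2.43) and the membrane semaphorin SEMA5B (4.53) rose on the log2 scale, together with PGF (2.64) and KDR (1.92). In the second, PLXNC1 (3.36) and SEMA3D (2.16) rose, SEMA5B (-5.25) fell, and of the signalling genes 4 rose and 6 fell, led by MICAL2 (3.28) and MICAL1 (-2.24), oxidases that take actin filaments apart. VEGFA, whose product also binds NRP1, rose by 1.97 over that step in WT and by 1.64 in untreated libraries, and PGF fell by 2.66 and 2.27. VEGFA rose again into day 7.5, by 1.06 in WT and 1.58 in untreated libraries. NRP1 and VEGFA thus both rose between days 2.5 and 4.5 in both arms.

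Across the 16 groups, the fold between the highest and lowest group mean was 177 for PLXNA4, 40.7 for SEMA3A, 30.0 for SEMA3E, 27.8 for SEMA3F, 17.6 for NRP1, 7.51 for PLXND1, 6.59 for NRP2 and 3.97 for PLXNA2. SEMA3C has no such fold because 1 group was at 0 counts. When the 16 groups were put in order of their means, neighbouring groups overlapped in 15 of 15 places for SEMA3A, SEMA3F, NRP2 and PLXNA2, in 14 for SEMA3C, SEMA3E, NRP1 and PLXND1 and in 13 for PLXNA4. Neighbours are the groups nearest in mean by construction, so an overlap of their ranges is a description and not a test of difference. The share of overlaps over all genes is not given here.

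Among the 12527 genes that passed the filter in both arms, the pattern of group means over the 16 groups most like that of SEMA3C belonged to TMEM120A (Pearson r = 0.938), KIF21A (0.936) and YPEL2 (0.935). For SEMA3E the nearest were FOXF1 (0.954), a forkhead factor of lateral plate mesoderm, B3GALT1 (0.928) and KDM7A (0.924). For SEMA3A they were LTBP1 (0.984), AAK1 (0.982) and PJA2 (0.98), and for SEMA3F SMARCC1 (0.981), AMOTL1 (0.978) and DCP2 (0.977). NRP1 was nearest to UNC5C (0.964), itself a receptor for the guidance cue netrin, THSD7A (0.947) and SPIRE1 (0.946), and NRP2 to PANK2 (0.89) and TBL1X (0.882).

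PLXNA4 was nearest to PRDM16 (0.959), a transcriptional regulator of ventricular myocardium, KNOP1P4 (0.952) and KCNQ5 (0.949). PLXNA2 was nearest to TBX6 (0.903), a T-box factor of early mesoderm, ACTR3B (0.874) and LOX (0.872), and PLXND1 to FUOM (0.956), FXYD5 (0.949) and S100A11 (0.945). Among the members, group means of SEMA3F and PLXND1 had r = 0.89, those of SEMA3A and SEMA3C 0.854, those of SEMA3C and NRP1 0.818 and those of SEMA3A and NRP1 0.803, whereas NRP1 and PLXNA2 had r = -0.831. These coefficients describe 16 groups that share libraries, days and lines.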

How the data were processed

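RNA was measured in 65 QuantSeq 3′ mRNA libraries, single-end, per the labels' protocols. The authors deposited 1 table of raw read counts per gene, made with featureCounts (Subread 1.6.2) on hg38 (GRCh38), per the submitters' processing notes. The aligner, annotation and strand setting are not given in the sources used here. All 58735 identifiers are in GENCODE 29, from which positions were taken, and 58207 have a current symbol. Another 4 columns belong to no sample used here and were left out.

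Counts were tested with edgeR 4.0.16 in R 4.3.3: filterByExpr (minimum count 10), TMM scaling, robust quasi-likelihood fit with 1 mean per group, each arm fitted on its own, Benjamini-Hochberg adjustment over all genes tested, two-sided, threshold 0.05. The difference between the arms was fitted over all 65 libraries. Log2 CPM used a prior count of 2, and 3 counts per library served as the floor of a count of 0. Floors cover counting error only. Alternatives were RLE scaling, no filter, DESeq2 1.42.0, the 2 groups alone, a block term, and each library left out. The fit was tested on simulated data.

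The members, lists and named-gene rule were chosen with earlier results of these data known. The rule names the 9 members, the 3 genes whose group means correlate best with each (1 such gene is not reported here), and up to 3 genes called per list and comparison with the largest change. In the enzyme arm the replicate numbers mark the 3 lines, which pairs libraries of a line (same-day deviations correlated above 0.1 in 15 of 21 pairs, median 0.209). In the genotype arm, KO and WT libraries of a day in the same run of library numbers did so in 27 of 37 pairs, against 7 of 74 across runs. No 2 libraries of a group agreed within sampling noise over 115 pairs (chi-square over its degrees of freedom 2.07 to 71.8).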

Additional observations from a re-analysis of the deposited data

Results flagged for a closer look

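Of 54 sets of 4 to 6 libraries of a group checked for a single library far from the rest, 5 had one past the 95% critical value of Dixon's gap test, a level that about 1 in 20 sets passes by chance. The KO library cl4_R1 was the far one in 3 of them: SEMA3A at day 2.5 (8.42 CPM, others 18.9 to 23.5), SEMA3F at day 2.5 (27.7 CPM, others 65.6 to 75.6) and NRP1 at day 1.5 (31.4 CPM, others 67.7 to 99.7). Its day 2.5 library was the shallowest of all, with 831062 counts, while its day 1.5 library held 3248079. In run A, to which cl4_R1 belongs, WT means were 7.57 and 27.4 CPM for SEMA3A and SEMA3F at day 2.5. For NRP1 at day 1.5 the WT mean of that run was 32.3 CPM. PLXNA4 at day 1.5 stood at 3.08 CPM, or 6 counts, in the WT library cl43_WT_UT (others 0 to 0.522). PLXND1 at day 4.5 stood at 5.21 CPM, or 8 counts, in the WT library WT_R2 (others 10.6 to 15.1). The part of depth, or of the run of library numbers, in these values was not tested.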

How the results depend on the processing

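Outside the contrasts that chose the genes, 519 log2 differences were recomputed over 36 results: 468 kept their direction and their side of the threshold, 25 no longer passed, 26 newly passed and 0 reversed. The 36 include the WT steps of SEMA3C into and out of day 2.5 and the steps of SEMA3E into day 7.5. Those steps share libraries with the choice and remain descriptions. In the contrasts that chose the genes, of 59 values over 5 results, 2 calls were lost, 3 were gained and 0 values reversed. The count of members called was 0 under all 16 alternatives for KO against WT at day 1.5, 7 to 9 for the WT step between days 2.5 and 4.5 and 4 to 6 for the untreated one. For KO against WT at day 4.5 it was 1, against 2 with the replicate block (run of library numbers), 4 with DESeq2 and 1 to 4 with each library left out. For HAse from day 1.5 at day 4.5 it was 2, against 1 with only the 2 groups in the fit, 3 with no filter on low counts, 3 with DESeq2 and 0 to 2 with each library left out. For HAse from day 2.5 it was 0, against 1 with no filter on low counts, 1 with DESeq2 and 1 with only the 2 groups. Between the 2 starts it was 0, against 2 with no filter and 0 to 1 with each library left out. For the WT step between days 1.5 and 2.5 it was 5, against 3 with only the 2 groups. For the WT step between days 4.5 and 7.5 it was 2, against 1 with the replicate name as a block (SEMA3E -1.48). For the untreated step between days 4.5 and 7.5 it was 2, and 1 to 2 with each library left out. With line as the replicate block no call of a member changed in the enzyme arm (SEMA3C -1.88, adjusted p = 0.0499, and SEMA3E 1.61, adjusted p = 0.0265, for HAse from day 1.5 at day 4.5). DESeq2 called 782 of 13797 genes in the KO at day 4.5. It called 621 of 12748 with HAse from day 1.5 and 90 with HAse from day 2.5. For the other alternatives the share of all genes called is not given here. The causes of the changed calls were not tested. At the depth of these libraries, genes of a few counts, such as SEMA3C and PLXNA4 at day 1.5, carry wide counting error.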
